A study of Mus musculus with 30 samples.

Results

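The potassium channel genes were the rows of the deposited table whose symbol starts with Kcn and a further letter, without antisense transcripts such as Kcnq1ot1, and 56 of 17775 genes met this rule. They fall into 9 inward rectifiers (Kcnj), 7 two-pore channels (Kcnk), 5 Shaker (Kcna), 2 Shab (Kcnb), 4 Shaw (Kcnc) and 3 Shal (Kcnd) channels, 2 silent modifiers (Kcnf, Kcng), 6 channels of the EAG, ERG and ELK group (Kcnh), 3 Kcnq channels, 3 BK and sodium-activated channels (Kcnma, Kcnt, Kcnu), 3 small-conductance SK channels (Kcnn), 8 auxiliary subunits (Kcnab, Kcnip, Kcnmb) and the regulator Kcnrg. A filter kept genes that reached a log2 value of 5 in 4 or more libraries; 53 of the 56 passed it and were tested, and Kcnj4, Kcnj14 and Kcnq5 were not. Kcnj8, Kcnk10, Kcnn4 and Kcnq1 were not analysed here.

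The study sorted alpha- and beta-cells from mouse pancreatic islets by their fluorescent reporters and sequenced bulk RNA, here 30 libraries in 5 groups. Mature alpha-cells of Glucagon-Venus mice aged 3 months gave 8 libraries (alpha). The group called alpha DT holds 4 libraries of alpha-cells from mice with Glucagon-Venus and RIP-DTR, which places the diphtheria toxin receptor under an insulin promoter, taken 30 days after toxin injection at an age of 2 months. Alpha-cells made to express Pdx1 in mice with Glucagon-rtTA, TetO-Cre, the R26YFP reporter and CAG-Pdx1, aged 3 months, gave 5 libraries (alpha Pdx1). The same 4 alleles with RIP-DTR and the toxin, again 30 days later, gave 6 libraries (alpha Pdx1 DT), and Insulin-mCherry mice aged 3 months gave 7 libraries of mature beta-cells (beta). The alpha and alpha Pdx1 groups differ in reporter and driver as well as in Pdx1, and the toxin came only with RIP-DTR, so within each pair these cannot be told apart. The labels do not say that libraries come from separate animals, so p-values measure only the spread between these samples, which may be technical.

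Potassium channels let potassium leave the cell and hold the membrane negative. The ATP-sensitive channel is built of Kcnj11 and the sulfonylurea receptor Abcc8. In beta-cells it closes when glucose raises ATP, which depolarizes the cell, opens calcium channels and leads to insulin release. Delayed rectifiers of the Kv2 type (Kcnb) and the calcium-activated BK and SK channels then end each action potential, A-type Kv4 channels (Kcnd) shape its start, and two-pore channels carry the resting leak. G-protein-gated inward rectifiers (Kcnj3, Kcnj6) open below inhibitory receptors such as those for somatostatin.

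Promoters are shown for 3 genes that were higher in alpha Pdx1 than in alpha (Kcnip1, Kcnmb1, Kcnip4) and for 3 that were higher in beta and did not pass in alpha Pdx1 (Kcnf1, Kcng3, Kcnj12). Each run is 300 bases, from 250 before to 50 after a RefSeq start (GRCm38.p6), 5′ to 3′ on the gene's strand. Capitals mark the word TAATG on either strand, which holds a core of the kind that homeodomain factors such as Pdx1 bind.
Kcnip1 (chr11:33993144-33993443, minus strand): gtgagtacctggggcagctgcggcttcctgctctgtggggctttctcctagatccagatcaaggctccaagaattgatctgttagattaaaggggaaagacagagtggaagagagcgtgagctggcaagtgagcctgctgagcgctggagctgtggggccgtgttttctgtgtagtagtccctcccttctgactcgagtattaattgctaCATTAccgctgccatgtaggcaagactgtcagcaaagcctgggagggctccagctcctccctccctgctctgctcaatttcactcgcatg
Kcnmb1 (chr11:33962763-33963062, plus strand): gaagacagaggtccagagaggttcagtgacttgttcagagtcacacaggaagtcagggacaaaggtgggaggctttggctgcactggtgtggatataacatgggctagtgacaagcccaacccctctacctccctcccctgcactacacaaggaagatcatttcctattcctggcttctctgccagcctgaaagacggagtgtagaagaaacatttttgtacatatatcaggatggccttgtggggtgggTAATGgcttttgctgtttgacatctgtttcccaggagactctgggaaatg
Kcnip4 (chr5:49285610-49285909, minus strand): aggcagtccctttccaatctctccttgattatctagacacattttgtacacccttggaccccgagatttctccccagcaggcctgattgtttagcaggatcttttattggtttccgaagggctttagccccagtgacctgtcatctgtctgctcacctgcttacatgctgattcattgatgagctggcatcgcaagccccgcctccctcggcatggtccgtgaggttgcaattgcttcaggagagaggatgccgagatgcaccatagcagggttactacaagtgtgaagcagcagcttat
Kcnf1 (chr12:17176839-17177138, minus strand): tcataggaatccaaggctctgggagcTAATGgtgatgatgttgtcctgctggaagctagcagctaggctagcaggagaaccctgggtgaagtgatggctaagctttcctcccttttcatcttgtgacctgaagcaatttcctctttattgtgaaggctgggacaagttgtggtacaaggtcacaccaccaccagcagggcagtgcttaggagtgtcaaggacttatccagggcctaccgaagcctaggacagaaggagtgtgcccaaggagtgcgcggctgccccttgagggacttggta
Kcng3 (chr17:83631846-83632145, minus strand): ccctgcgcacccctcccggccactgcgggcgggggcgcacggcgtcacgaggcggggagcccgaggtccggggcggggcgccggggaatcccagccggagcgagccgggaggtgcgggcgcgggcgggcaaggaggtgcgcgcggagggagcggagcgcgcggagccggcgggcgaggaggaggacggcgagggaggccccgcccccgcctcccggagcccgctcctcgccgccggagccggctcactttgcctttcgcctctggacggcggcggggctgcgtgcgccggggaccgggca
Kcnj12 (chr11:61065554-61065853, plus strand): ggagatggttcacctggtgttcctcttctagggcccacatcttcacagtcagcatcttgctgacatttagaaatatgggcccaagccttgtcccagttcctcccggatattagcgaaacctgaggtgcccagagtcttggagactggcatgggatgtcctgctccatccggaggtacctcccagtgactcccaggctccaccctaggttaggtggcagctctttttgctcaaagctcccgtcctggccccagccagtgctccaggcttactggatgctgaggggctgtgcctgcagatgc
The printed windows of Kcnip1, Kcnmb1 and Kcnf1 hold 1 match each, and those of Kcnip4, Kcng3 and Kcnj12 hold 0, so a match did not separate the 2 sets. The other 2 Kcnip1 windows and the other Kcnip4 window in RefSeq hold 0 as well. Searched on both strands, the marked word stood in 26.8% of 32851 RefSeq promoters of this length and in 11 of 58 windows (19%) of the 40 potassium channel genes that matched by symbol. The longer word TAATTA, which holds the same core, stood in 5.3% of all promoters and in 0 of the 58. A match is a run of letters and not a site.

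Kcnip1 and Kcnmb1 also lie at 1 locus. On GRCm38 with GENCODE M21 annotation, Kcnip1 spans chr11:33629339-33993152 on the minus strand, a gene of 363.8 kb, and the 10.6 kb Kcnmb1 (chr11:33963013-33973641) lies inside it on the plus strand. Their exons share 0 bases and their annotated starts stand 30.1 kb apart. Whether counting used strand is not given in the sources used here, so unspliced Kcnip1 reads over Kcnmb1 exons could not be told apart from Kcnmb1 reads. In all, 13 of the 56 genes share exon bases with another gene, among them Kcna6 (40.4% of its exon bases with Gm26673), Kcnj3 (31.1% with Gm26794), and Kcnk2 (14.4% with A430027H14Rik), each on the opposite strand, and their values carry this uncertainty.

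In all, 5 libraries went against their labels. By Pdx1, the transcription factor that the transgene supplies, the library labelled alpha 8 stood at 11.23 where the other alpha libraries stood between 3.66 and 5.61, and the library labelled alpha Pdx1 DT 5 stood at 5.51 where its group otherwise stood between 11.53 and 12.59. The library labelled alpha Pdx1 5 was at 8.61, below the 10.78 to 11.83 of its group. In beta 1 and beta 5, which are labelled beta, the glucagon gene Gcg was the top gene. Alpha 4 and alpha Pdx1 DT 5 correlated at r = 0.993 over 16633 genes, the highest of any pair (the next was 0.987); whether they hold the same RNA was not tested. Values are quantile-normalized log2 values, not per transcript length. The read depth of the libraries is unknown; 32 to 111 distinct values lay below the lower quartile of a library, a number that rises with depth. Among the other alpha and beta libraries, the mean of 7 alpha-cell markers was 15.25 to 15.78 in alpha and 9.77 to 10.63 in beta, and that of 8 beta-cell markers was 7.03 to 8.79 in alpha and 15.37 to 15.59 in beta. The 3 doubted ones of these groups stood between, with 14.28 and 11.19 in alpha 8, 13.29 and 14.33 in beta 1, and 13.64 and 14.41 in beta 5. Pdx1 is among these beta-cell markers and Gcg among the alpha-cell markers, so the means are not independent of how these libraries were picked. Mafa, a factor of mature beta-cells, stayed between 0.76 and 2.35 in every alpha-cell library of the 4 alpha groups.

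**Figure D1:**
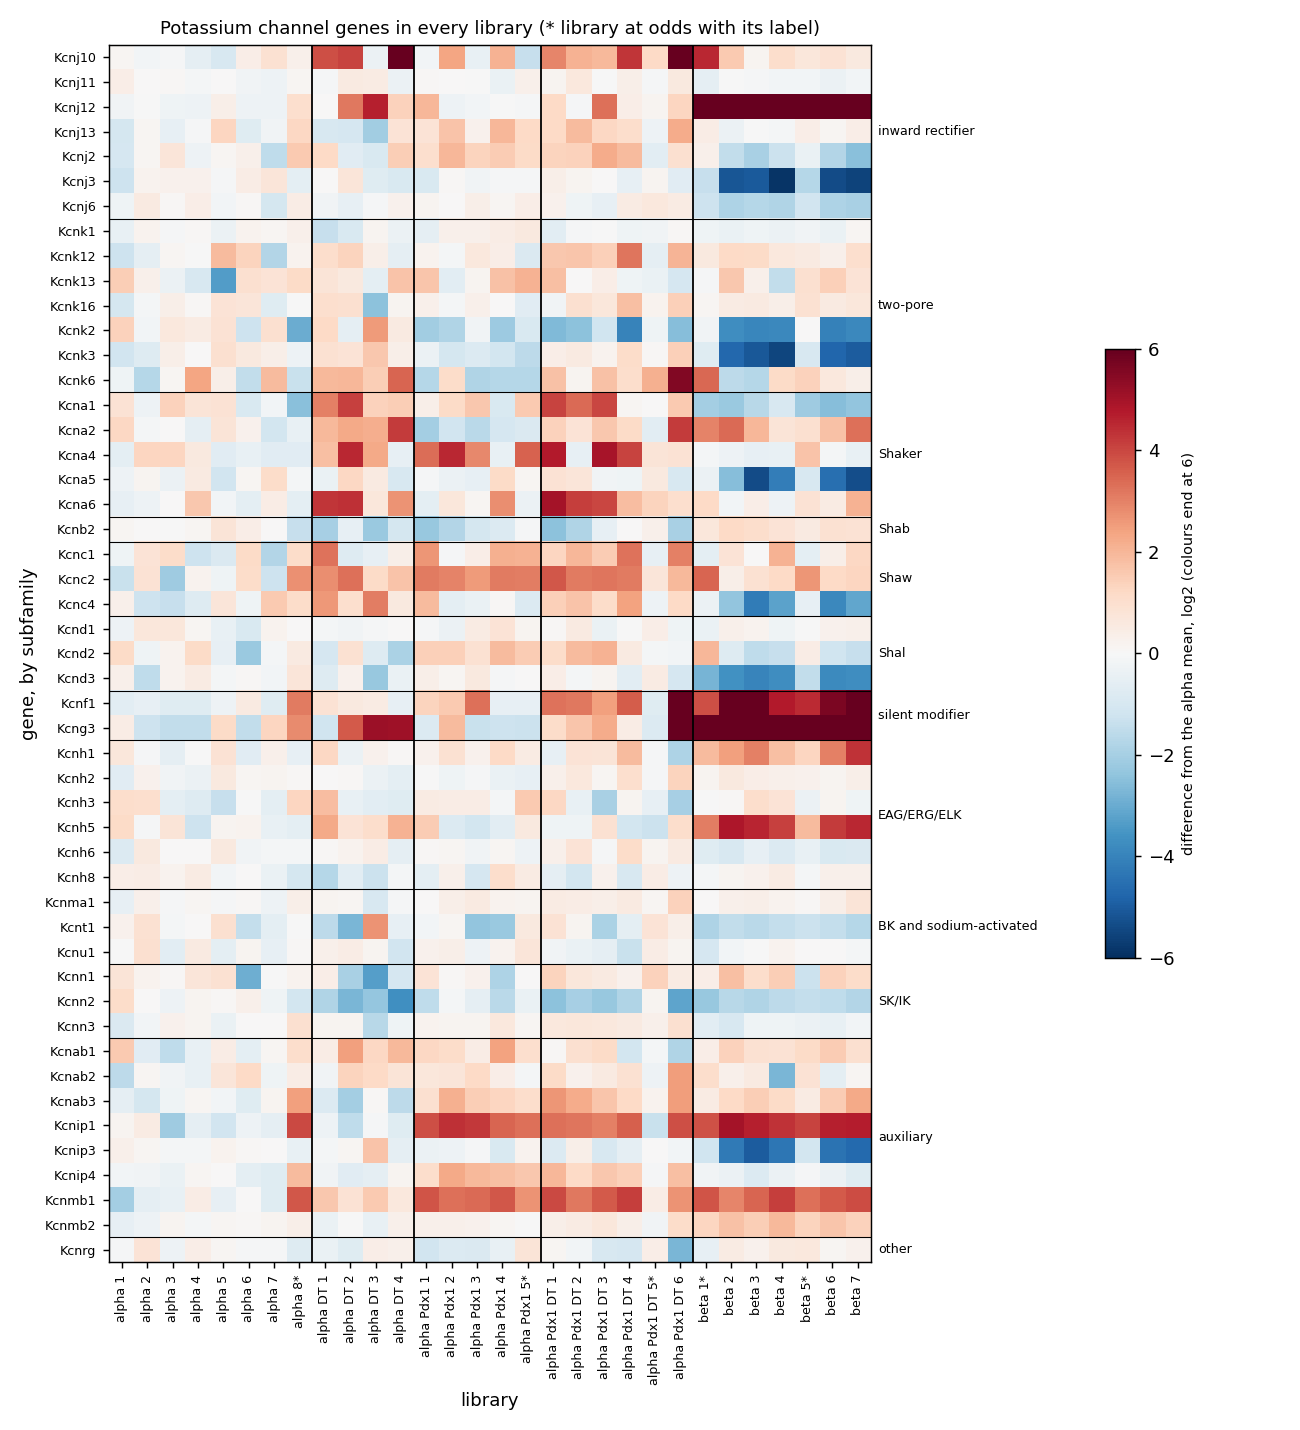
Each row is 1 of 49 tested genes, ordered by subfamily, and each column 1 library, with colour giving the difference from the mean of the 8 alpha libraries on the log2 scale (colours end at 6). The columns of alpha 8, alpha Pdx1 DT 5, beta 1 and beta 5, marked with a star as at odds with their labels together with alpha Pdx1 5, differ from their neighbours, as for Kcnip1 at 10.94 in alpha 8 and 5.64 in alpha Pdx1 DT 5.

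A core of channels stood high in all 5 groups. Per kilobase of exon, on a log2 scale, the highest mean levels in alpha were those of Kcnn3 (SK3) at 10.13, Kcnh6 (ERG2) at 9.93, Kcnj11 at 9.70, Kcnk16 (the two-pore channel TALK-1) at 9.58 and Kcnk1 (TWIK-1) at 9.17. In beta the order was Kcnip1 at 10.12, Kcnk16 at 10.10, Kcnmb2 at 10.05, Kcnn3 at 9.68 and Kcnj11 at 9.48. The lists shared 3 of their 5 genes, and Kcnip1 stood at place 23 of 56 in alpha against place 1 in beta.

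Kcnj11, the pore of the ATP-sensitive channel, varied little between groups. Its log2 values were 11.29, 11.87, 11.85 and 10.98 in alpha DT and 11.40, 11.39, 11.30, 10.93 and 11.64 in alpha Pdx1. The lowest, median and highest values were 11.06, 11.37 and 11.75 in alpha, 11.27, 11.62 and 11.96 in alpha Pdx1 DT, and 10.81, 11.17 and 11.31 in beta. The groups overlapped throughout. Ordered by mean, alpha Pdx1 DT (11.62 ± 0.30, SD, n = 6) stood first, then alpha DT (11.5 ± 0.43, n = 4), alpha (11.35 ± 0.21, n = 8), alpha Pdx1 (11.33 ± 0.26, n = 5) and beta (11.13 ± 0.18, n = 7), and neighbours in this order differed by less than the larger of their SDs. Beta against alpha gave a log2 fold change of −0.22 ± 0.15 (standard error; limma adjusted p = 0.266), and alpha Pdx1 DT against beta 0.50 ± 0.16 (adjusted p = 0.0192), a call lost without alpha Pdx1 DT 2 (0.0571) or alpha Pdx1 DT 6 (0.0524). Abcc8, its partner and its neighbour at a distance of 3.8 kb on chromosome 7, gave 0.79 ± 0.19 in the same contrast (adjusted p = 0.00174).

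Other pore subunits of the beta-cell action potential did not all behave alike. Kcnma1 (BK) had group means from 11.66 to 12.41 and Kcnk16 from 10.74 to 11.64, and neither passed the test in any of 8 contrasts. Without the 5 libraries at odds with their labels, alpha Pdx1 DT against alpha gave 0.70 for Kcnma1 (adjusted p = 0.0116), and alpha Pdx1 DT against alpha DT gave 0.84 for Kcnma1 (adjusted p = 0.0203). Kcnh2 (ERG1) ran from 10.71 in alpha Pdx1 to 11.52 in alpha Pdx1 DT and passed between these groups. Kcnb2 passed in alpha Pdx1 DT against beta, and both are given below. In all, 38 of the 53 genes passed in at least 1 contrast and 15 in none, the latter including Kcnab1, Kcnab2, Kcnc1, Kcnd1, Kcnd2, Kcnh3, Kcnh8, Kcnk1, Kcnk13, Kcnk16, Kcnma1, Kcnn1, Kcnrg and Kcnu1. A p that misses the threshold does not show that levels were equal: Kcnc1, for example, had SDs of up to 1.85. Over the 5 group means, the profiles most like that of Kcnj11 were those of Dpp6 (r = 0.9991), Bend4 (0.9964) and Afap1 (0.9962). For Kcnk16 they were Wibg (0.9979), Mir493 (0.9976) and Syt3 (0.9963); with 5 points each such values are a description.

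Beta against alpha asks which channels separate the cell types. Of 53 channel genes, 26 passed (49.1%), beside 34.5% of all 16633 genes. In beta 12 were higher and 14 lower, where 16.9% of all genes were higher and 17.6% lower. The median absolute log2 fold change was 1.03 over the channel genes and 0.48 over all genes. Among those higher in beta were both silent modifiers, an inward rectifier (Kcnj12), 2 of 6 EAG, ERG and ELK genes, Kcna2, Kcnc2 and 4 of 8 auxiliary subunits. Among those lower were 3 of 7 tested inward rectifiers, 2 of 7 two-pore channels, Kcna1, Kcna5, Kcnc4, Kcnd3, Kcnn2, Kcnt1, Kcnh6 and Kcnip3. The groups did not overlap for 11 of the 53 (20.8%), beside 14.5% of all genes.

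The silent modifiers, which form no channel alone and alter Kv2 channels, were both higher in beta. Kcng3 (Kv6.3) had a lowest, median and highest value of 0.76, 1.86 and 5.07 in alpha and of 9.39, 10.09 and 10.71 in beta. Its fold change was 7.77 ± 0.89 on the log2 scale (adjusted p = 2.89e-08). Kcnf1 (Kv5.1) ran from 0.76 over 0.94 to 4.60 in alpha, the highest being alpha 8, and from 5.39 over 7.14 to 8.33 in beta, a difference of 5.40 ± 0.75 (adjusted p = 6.08e-07). Neither gene's groups overlapped. Kcnj12 (Kir2.2, a strong inward rectifier) followed them, with 0.76, 0.83 and 2.05 in alpha and 7.41, 8.67 and 8.91 in beta (7.46 ± 0.57, adjusted p = 5.18e-12). Many alpha values of these 3 genes sat at or near the lowest value of their library, where genes without reads stand, so the size of their fold changes depends on that floor.

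Of the EAG pair, Kcnh5 (EAG2) ran from 1.28 to 3.68 in alpha and from 4.43 to 7.37 in beta (3.89 ± 0.53, adjusted p = 4.55e-07), and Kcnh1 (EAG1) from 5.08 to 6.64 and from 7.04 to 10.09 (2.55 ± 0.43, adjusted p = 1.8e-05). Both were thus separate, while Kcnh6 went the other way by −0.74 ± 0.18 (adjusted p = 0.002). Among the auxiliary subunits, Kcnmb2 (a BK subunit that inactivates the channel) ran from 9.66 to 10.52 in alpha and from 11.45 to 12.09 in beta, without overlap (1.55 ± 0.17, adjusted p = 4.28e-09). Kcnip1, Kcnmb1 and Kcnab3, the other 3 that were higher in beta, are described with Pdx1.

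**Figure D2:**
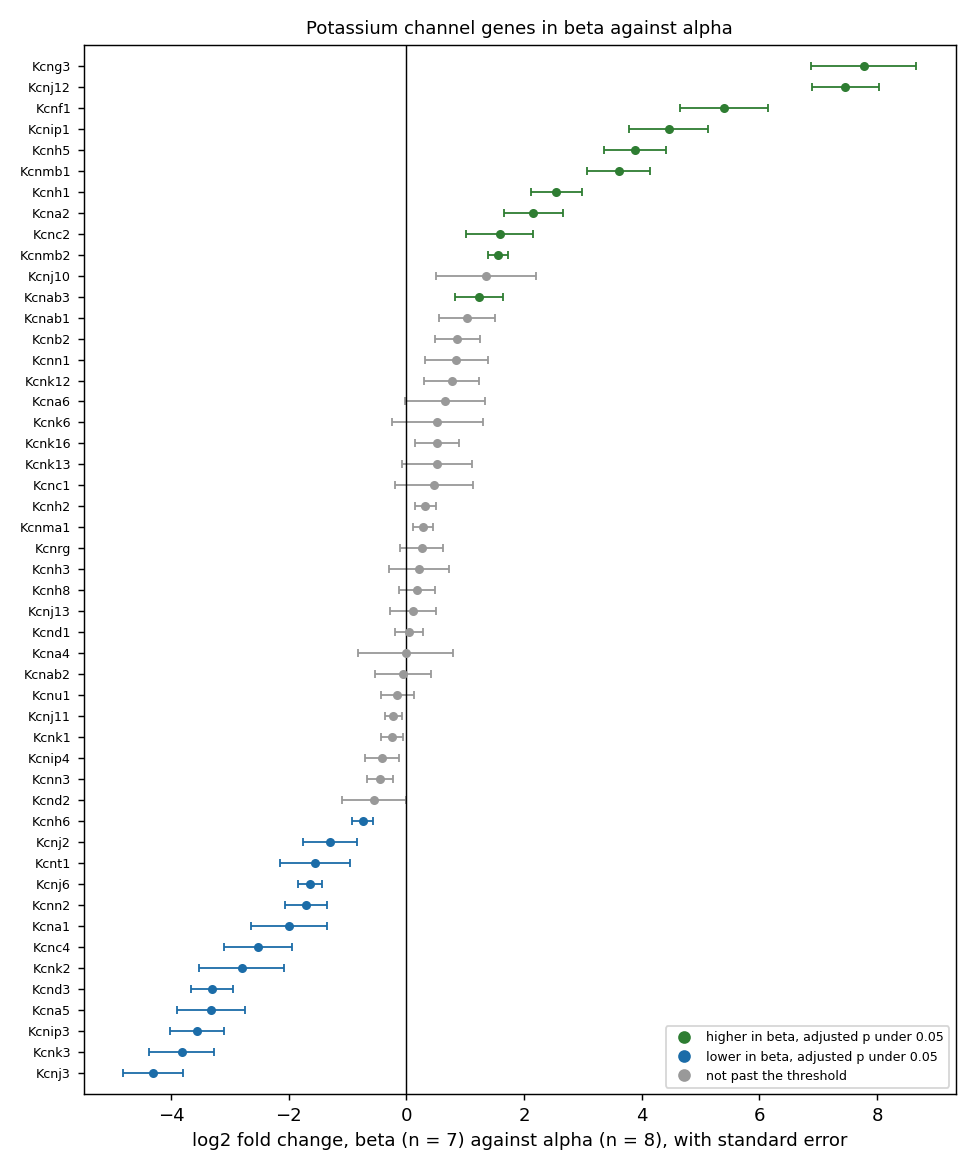
The x axis gives the log2 fold change of beta (n = 7) against alpha (n = 8) for 49 of the 53 tested genes, with its standard error, and colours mark 11 higher, 13 lower and 25 that did not pass. Kcng3 at 7.77 and Kcnj12 at 7.46 stand at 1 end and Kcnj3 at −4.30 at the other.

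On the alpha side, the G-protein-gated inward rectifier Kcnj3 (GIRK1) had the widest difference. Its lowest, median and highest values were 8.04, 9.52 and 10.02 in alpha and 3.42, 4.16 and 7.92 in beta, a log2 fold change of −4.30 ± 0.51 (adjusted p = 5.8e-08). The 2 highest beta values, 7.92 and 7.58, were those of beta 1 and beta 5, and the other 5 beta libraries stood at 3.42 to 4.25. Its partner Kcnj6 (GIRK2) ran from 9.63 to 11.24 and from 8.78 to 9.55, also without overlap (−1.64 ± 0.20, adjusted p = 5.91e-08). The acid-sensitive leak channel Kcnk3 (TASK-1) showed the same split in beta, with 9.64 and 9.41 in beta 1 and beta 5 and 4.87 to 5.66 in the rest, against 9.20 to 11.32 in alpha (−3.82 ± 0.56, adjusted p = 3.97e-06). Kcnk2 (TREK-1), a stretch-sensitive leak channel, was lower by −2.80 ± 0.72 (adjusted p = 0.00248), with 4.70 and 4.94 in beta 1 and beta 5 and 0.86 to 1.17 in the others. The lowest values of those other beta libraries also ran from 0.86 to 1.17, so the size of the Kcnk2 fold change depends on that floor.

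Parts of Kv4 channel complexes went in different directions: Kcnd3, Kcnip3 and Dpp10 were lower in beta, Kcnip1 was higher (4.46 ± 0.67), and Kcnip4 (−0.41 ± 0.29) and Dpp6 (−0.70 ± 0.41) did not pass. Kcnd3 (Kv4.3) ran from 7.08 to 9.32 in alpha and from 4.62 to 7.11 in beta (−3.30 ± 0.36, adjusted p = 7.61e-09). Kcnip3 (KChIP3, a calcium-binding Kv4 subunit also known as the repressor DREAM) ran from 9.77 to 10.51 and from 5.24 to 9.13 without overlap (−3.56 ± 0.46, adjusted p = 2.93e-07), and in beta the values 9.04 and 9.13 were again those of beta 1 and beta 5. Dpp10, a Kv4 partner from the list of partner genes, was lower by −2.75 ± 0.28 (adjusted p = 2.54e-09). Kcnd1, by contrast, had means of 7.79 ± 0.55 and 7.84 ± 0.29 (SD) and Kcnd2 of 4.08 ± 1.09 and 3.53 ± 1.31, and neither passed. Further members lower in beta were Kcna5 (−3.32 ± 0.58), Kcnc4 (−2.52 ± 0.58), Kcna1 (−1.99 ± 0.65), Kcnn2 (−1.71 ± 0.36) and Kcnj2 (−1.29 ± 0.46). With an offset of 32 added on the linear scale, which shrinks differences at low levels, Kcna1 lost its call (−0.37, adjusted p = 0.349). Under that offset the fold changes were 4.77 for Kcng3, 3.54 for Kcnj12, 2.12 for Kcnf1, 1.68 for Kcnh5, −1.31 for Kcna5 and −0.77 for Kcnk2, and these genes passed.

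Without the 5 libraries at odds with their labels, 25 channel genes passed in beta against alpha, beside 32.1% of all genes. The log2 fold changes were then −5.48 for Kcnj3, −5.05 for Kcnk3, −4.60 for Kcnip3 and −4.31 for Kcnk2, the last with the beta values at or near the floor. The 5 libraries were chosen by Pdx1 and hormone levels, so no fit without them is a new test. This weighs most in the contrasts of Pdx1 described below. Kcnt1 (a sodium-activated channel, −1.55 ± 0.59, adjusted p = 0.0389) lost its call there (adjusted p = 0.0884) and rested on single libraries: it passed in 3 of 15 refits that each left out 1 library, those without alpha 6, alpha 7 or beta 5, and had an adjusted p of up to 0.0733 in the others. It also failed with the offset (0.0682) or with Rn18s-rs5 as a covariate (0.0658). Kcnj2 lost its call without alpha 3 (0.0521), alpha 8 (0.0661), beta 3 (0.0579), beta 6 (0.0522) or beta 7 (0.074). Kcnc2 (1.59 ± 0.57, adjusted p = 0.028) lost its call without alpha 1 (0.0619), alpha 3 (0.0742), alpha 7 (0.0574), beta 1 (0.0832) or beta 5 (0.0657), with an offset of 32 (0.61, adjusted p = 0.116) or with only the groups compared (0.0531), and Kcnab3 without beta 7 (0.0541). Of the named genes that did not pass, Kcnb2 passed without alpha 5 (0.0472), with the offset (0.0395) or with only the groups compared (0.0058), and Kcnn3 without alpha 1 (0.0406).

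**Figure D3:**
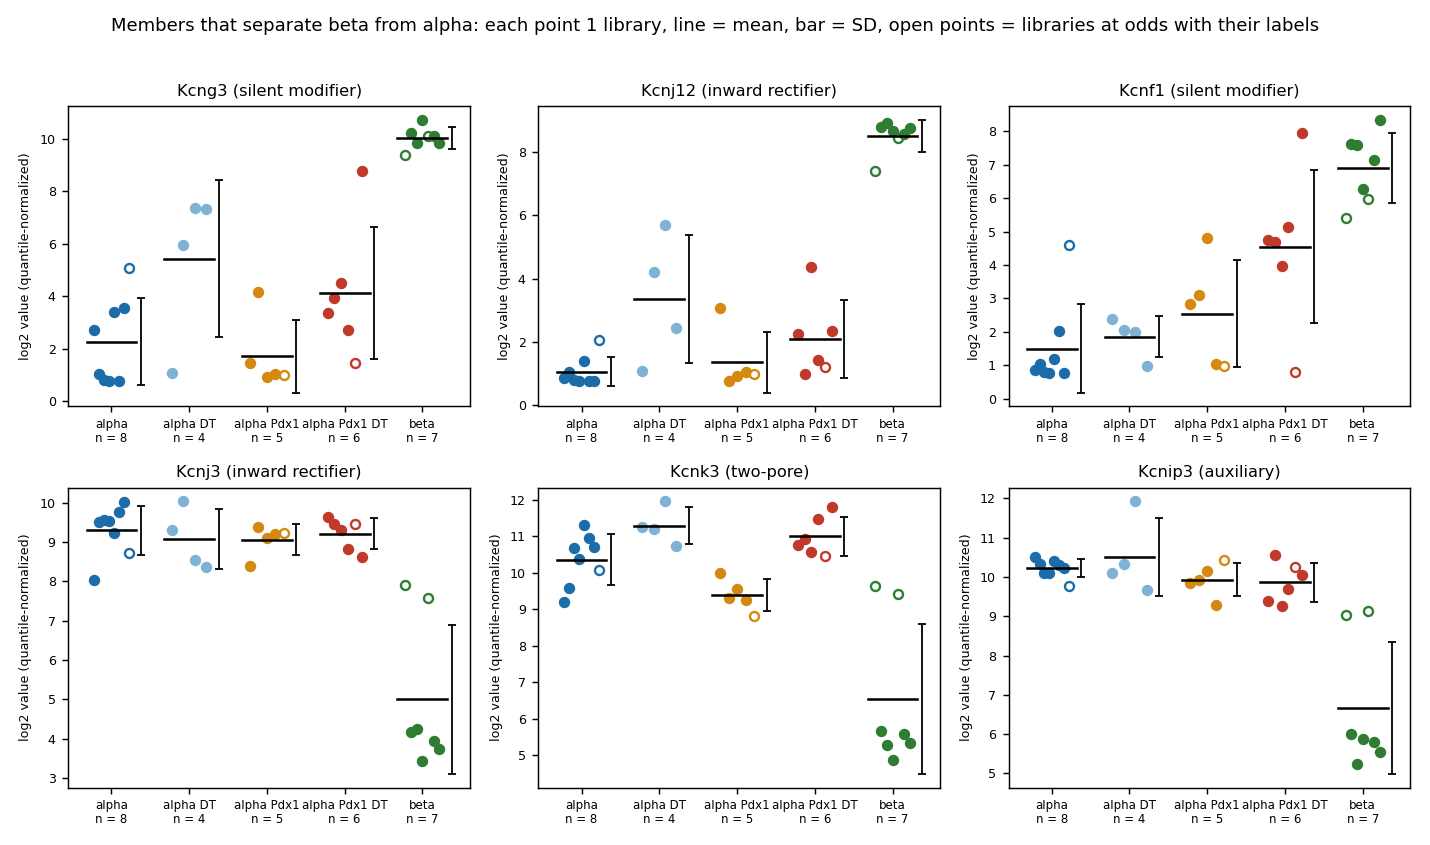
Each point is the log2 value of 1 library, lines are group means, bars SDs, and open points the 5 libraries at odds with their labels, for 3 genes higher in beta (Kcng3, Kcnj12, Kcnf1) and 3 lower (Kcnj3, Kcnk3, Kcnip3). In the lower row the open points of beta 1 and beta 5 stand above the other 5 beta libraries, as at 7.92 and 7.58 against 3.42 to 4.25 for Kcnj3.

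With the Pdx1 transgene, 3 of 8 auxiliary subunits were higher. In alpha Pdx1 against alpha, 4 of 53 channel genes passed (7.55%, beside 4.33% of all genes). All 4 were higher and 0 lower, where 2.36% of all genes were higher and 1.98% lower. At an unadjusted p under 0.05, 10 were higher and 3 lower (24.5%, beside 17.5% of all genes). Of the 4, 3 were auxiliary: Kcnip1 (KChIP1, a calcium-binding subunit of Kv4 channels), Kcnmb1 (the BK β1 subunit, which raises the channel's calcium sensitivity) and Kcnip4 (KChIP4). The fourth was Kcnc2 (Kv3.2, a fast delayed rectifier).

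Kcnip1 stood at 10.85, 11.34, 11.21, 10.48 and 10.25 in alpha Pdx1 and had a lowest, median and highest value of 4.85, 6.54 and 10.94 in alpha. The highest alpha value was that of alpha 8, and the other 7 stood at or below 7.46, so only that library made the groups overlap. The log2 fold change was 3.86 ± 0.74 (adjusted p = 0.00386). In beta, Kcnip1 ran from 10.78 over 11.62 to 11.97, 4.46 ± 0.67 above alpha (adjusted p = 6.35e-06). With toxin it stood at 6.64, 5.44, 6.91 and 6.24 in alpha DT and from 5.64 over 10.22 to 10.82 in alpha Pdx1 DT, where 5.64 was that of alpha Pdx1 DT 5 and the others began at 10.01.

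Kcnmb1, inside the Kcnip1 gene, was also higher in alpha Pdx1 and in beta than in alpha. It stood at 9.77, 9.27, 9.37, 9.69 and 8.65 in alpha Pdx1 and at 3.92, 5.50 and 9.71 (lowest, median and highest) in alpha, again with alpha 8 the highest and the rest at or below 6.43 (3.37 ± 0.60, adjusted p = 0.00239). Beta ran from 8.92 over 9.65 to 10.11 (3.61 ± 0.54 above alpha, adjusted p = 4.03e-06). In alpha DT it stood at 7.60, 6.82, 7.55 and 6.59, above 7 of the 8 alpha libraries (1.17 ± 0.64, adjusted p = 0.313), a difference that passed without the 5 libraries (1.70, adjusted p = 0.00952). Beside beta, the means in alpha Pdx1 and beta were 10.83 ± 0.46 and 11.43 ± 0.41 (SD) for Kcnip1 and 9.35 ± 0.44 and 9.58 ± 0.39 for Kcnmb1; alpha Pdx1 and beta were not compared by a test.

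Kcnip4 had another pattern. It stood at 10.36, 11.59, 11.25, 11.15 and 10.95 in alpha Pdx1 and at 8.60, 9.15 and 11.22 in alpha (1.74 ± 0.32, adjusted p = 0.00239), but beta ran only from 8.50 over 8.98 to 9.23, and beta against alpha was −0.41 ± 0.29 (adjusted p = 0.29). Alpha Pdx1 DT, from 9.24 over 10.86 to 11.30, stood above every beta library, by 1.75 ± 0.31 (adjusted p = 5.95e-05). Kcnc2 stood at 6.90, 6.75, 6.34, 6.90 and 6.86 in alpha Pdx1 and from 1.67 over 3.78 to 6.52 in alpha (2.96 ± 0.62, adjusted p = 0.00615; 1.45 with an offset of 32).

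Among the channels that separate beta from alpha most, Kcng3 (0.91 to 4.17 in alpha Pdx1), Kcnj12 (0.76 to 3.06) and Kcnh5 (1.43 to 4.02) did not pass in alpha Pdx1 against alpha. Nor did Kcnj3 (8.39 to 9.39), Kcnk3 (8.81 to 10), Kcnip3 (9.29 to 10.43) and Kcnd3 (8.54 to 9.18). Their means in alpha Pdx1 were 9.07, 9.38, 9.93 and 8.79, and in alpha 9.30, 10.36, 10.22 and 8.59. Without the 5 libraries, 7 genes passed, beside 6.67% of all genes. Kcnab3 (1.81) and Kcnj2 (1.69) then joined the higher genes and Kcnb2 (−1.67) was lower. Leaving out alpha 8 alone also gave 7, beside 5.33% of all genes. The ribosomal RNA row Rn18s-rs5 was lower in alpha Pdx1 (16.90 to 18.27, against 17.68 to 20.54 in alpha; −1.98 ± 0.48), and with it as a covariate Kcnip1 (adjusted p = 0.0623) and Kcnc2 (0.118) lost their calls while Kcnmb1 and Kcnip4 kept theirs. The mean of 6 acinar markers had a median of 4.75 in alpha Pdx1 and 10.38 in alpha, and beta-cell markers stood at 9.82 to 11.22 against 7.03 to 11.19; their part was not tested.

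**Figure D4:**
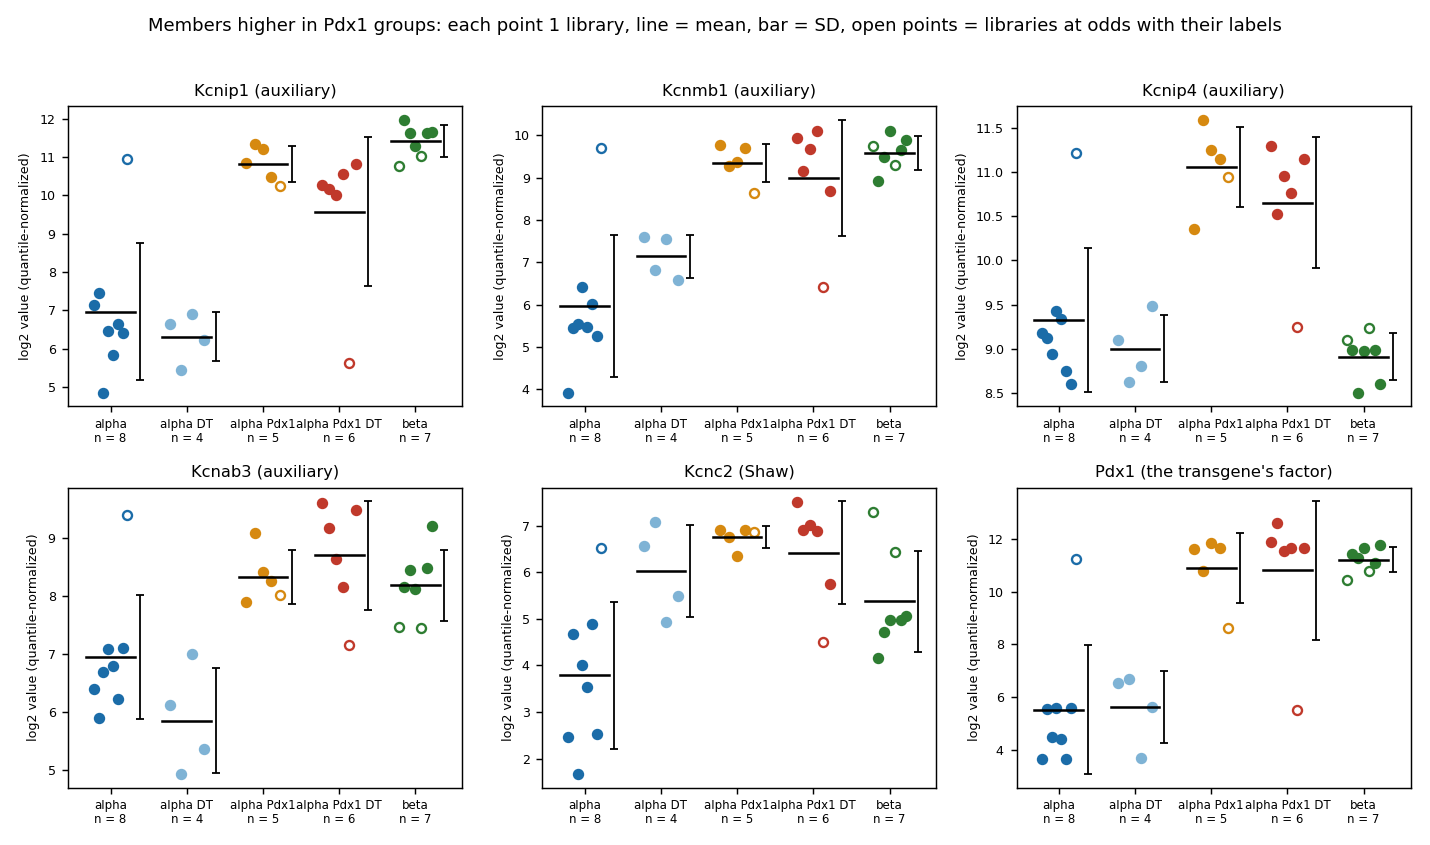
Each point is the log2 value of 1 library (line, mean; bar, SD; open points, libraries at odds with their labels) for Kcnip1, Kcnmb1, Kcnip4, Kcnab3 and Kcnc2, with Pdx1 itself in the last panel. The open points of alpha 8 (Kcnip1 10.94, Pdx1 11.23) and alpha Pdx1 DT 5 (Kcnip1 5.64, Pdx1 5.51) stand away from their groups in both panels.

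The same step under toxin, alpha Pdx1 DT against alpha DT, shares no library with the comparison above. Of 53 channel genes, 5 passed (9.43%, beside 2.1% of all genes), 5 higher and 0 lower, where 1.78% of all genes were higher and 0.319% lower. At an unadjusted p under 0.05, 13 were higher and 3 lower (30.2%, beside 16.5% of all genes). Those that passed were Kcnip1 (3.27 ± 0.83), Kcnab3 (2.85 ± 0.51), Kcnj13 (Kir7.1, 2.03 ± 0.48), Kcnip4 (1.66 ± 0.36) and Kcnn3 (1.02 ± 0.28). Kcnip1 and Kcnip4 passed in both comparisons, 50% of the 4 genes of the first and 40% of the 5 of the second, and all 4 genes of the first had the same sign in the second. Kcnab3, a cytoplasmic Kv subunit, stood at 6.12, 4.93, 7 and 5.36 in alpha DT and from 7.15 over 8.90 to 9.61 in alpha Pdx1 DT, without overlap (adjusted p = 0.00333). It was also higher in beta than in alpha (1.24 ± 0.41, adjusted p = 0.0184), and Kcnab3 and Kcnip1 were the 2 genes called in both of these comparisons (7.69% of the 26 in beta against alpha and 40% of the 5). Only 12 of those 26 had the same sign in alpha Pdx1 DT against alpha DT. The share of all genes called in both members of a pair was not computed. Kcnj13 stood at 6.39, 6.35, 5.31 and 8.17 in alpha DT and from 7.06 over 8.58 to 9.59 (adjusted p = 0.0212). It lies inside Gigyf2 on the other strand, sharing 0 exon bases.

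Single libraries weighed on this contrast. Without alpha DT 3, in which Kcnn3 stood at 9.97 and Kcnj13 at 5.31, 1 gene passed, beside 0.833% of all genes. Kcnn3 (adjusted p = 0.247), Kcnj13 (0.113), Kcnip1 (0.0725) and Kcnip4 (0.0508) did not. Kcnip1 passed in 2 of 10 refits, those without alpha DT 1 or alpha Pdx1 DT 5, with an adjusted p of up to 0.0796 in the others, and Kcnn3 in 4 of 10. Kcnj13 also failed without alpha Pdx1 DT 2 (0.0509) and alpha Pdx1 DT 6 (0.0539). Counts without alpha Pdx1 DT 1, 2, 3, 4 and 6 were 3, 2, 3, 3 and 2, beside 1.12%, 1.19%, 1.56%, 1.1% and 1.23% of all genes. Without alpha Pdx1 DT 5, 11 genes passed (beside 5.61% of all genes), as they did without all 5 libraries (beside 5.77%). In the latter fit Kcnip1 stood 4.06 higher (adjusted p = 7.75e-09), Kcnf1 3.44 and Kcnmb1 2.37, and Kcnk2 was lower (−3.50, adjusted p = 0.00117). The 5 libraries were chosen in part by Pdx1 itself, so that fit is not a new test of Pdx1. With Rn18s-rs5 as a covariate, Kcnip1 (0.0667), Kcnj13 (0.062) and Kcnn3 (0.111) lost their calls. Fitted on these 2 groups alone, 0 channel genes and 0 of all 15160 genes passed in limma, with 10 and 1267 at an unadjusted p under 0.05.

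At 30 days after toxin, 4 of 53 channel genes differed between alpha DT and alpha (7.55%, beside 3.26% of all genes), 3 higher and 1 lower, where 1.57% of all genes were higher and 1.7% lower. Of these, the SK channel Kcnn2 (SK2, a calcium-activated channel of the afterhyperpolarization) had the smallest adjusted p. It stood at 7.24, 6.31, 6.75 and 5.36 in alpha DT and from 7.94 over 9.10 to 10.15 in alpha, without overlap (−2.64 ± 0.43, adjusted p = 0.00122). It kept its call in each of 12 refits without 1 library. Its relatives Kcnn3 (11.26 ± 0.88 against 11.65 ± 0.53, SD) and Kcnn1 (3.82 ± 1.55 against 5.29 ± 1.24) did not pass. Beta, where Kcnn2 ran from 6.79 over 7.39 to 7.64, was also below alpha.

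Kcna2, Kcna6 and Kcnj10 were higher after toxin. Kcna2 (Kv1.2) stood at 8.15, 8.48, 8.39 and 10.41 in alpha DT and from 5.11 over 6.18 to 7.45 in alpha, without overlap (2.64 ± 0.60, adjusted p = 0.0131). Kcna6 (Kv1.6) stood at 5.61, 5.71, 2.00 and 4.05 against 0.76, 1.11 and 2.93 (3.01 ± 0.80, adjusted p = 0.0339). Kcnj10 (Kir4.1, known from glia) stood at 6.20, 6.39, 2.00 and 9.77 against 1.39, 2.38 and 3.26 (3.73 ± 1.00, adjusted p = 0.0351). For Kcna6 and Kcnj10, alpha DT 3 at 2.00 lay within the alpha range and at that library's own lowest value, shared by 1064 genes. Kcna6 lost its call without alpha 1 (0.0502), alpha 2 (0.0556), alpha 6 (0.053), alpha 8 (0.0523), alpha DT 1 (0.0952) or alpha DT 2 (0.121), with an offset of 32 (0.75, adjusted p = 0.0652) or once Rn18s-rs5 entered as covariate (0.0552), and Kcnj10 without alpha 2 (0.0556), alpha 4 (0.0554), alpha DT 1 (0.0614), alpha DT 2 (0.083) or alpha DT 4 (0.124), with the offset (1.92, adjusted p = 0.0624) or with the covariate (0.0788). Members called numbered 2 without alpha 2, 7 without alpha DT 3, 8 without alpha DT 4, and 6 without alpha 8. The shares of all genes called were then 1.84%, 3.89%, 6.52% and 2.23%.

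Markers of several other cell types stood higher in alpha DT than in alpha, most of them with overlapping ranges. The mean of 5 leukocyte markers was 8.03 to 12 in alpha DT and 4.85 to 7.32 in alpha, with none of the 5 at a library's lowest value, and Lyz2 (4.85 ± 1.35), Csf1r (4.38 ± 1.04) and Tyrobp (4.90 ± 1.08) passed. The PP-cell marker Ppy was 17.92 to 18.63 in alpha DT against 14.97 to 17.92 in alpha, the endothelial marker Pecam1 5.02 to 6.35 against 0.76 to 5.52, the mean of 6 acinar markers 8.07 to 14.71 against 6.54 to 13.38, that of 4 delta-cell markers 9.94 to 11.76 against 8.36 to 10.4, and that of 3 neuron and Schwann markers 8.15 to 9.93 against 7.5 to 8.89. By contrast, the mean of 3 mesenchymal markers was 7.08 to 8.11 against 6.57 to 9.45, with a lower median in alpha DT (7.14 against 7.73). Duct markers were 6.27 to 7.35 against 6.05 to 8.2 (medians 6.92 and 6.7). The means of the lists were not tested. The libraries highest in leukocyte markers, alpha DT 4 (12), alpha Pdx1 DT 6 (11.51) and beta 1 (11.02), were also the 3 highest of Kcnj10 (9.77, 9.20 and 6.86). The part of these cells in the results was not tested. In bulk samples, fewer cells of a type and less RNA per cell cannot be told apart.

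**Figure D5:**
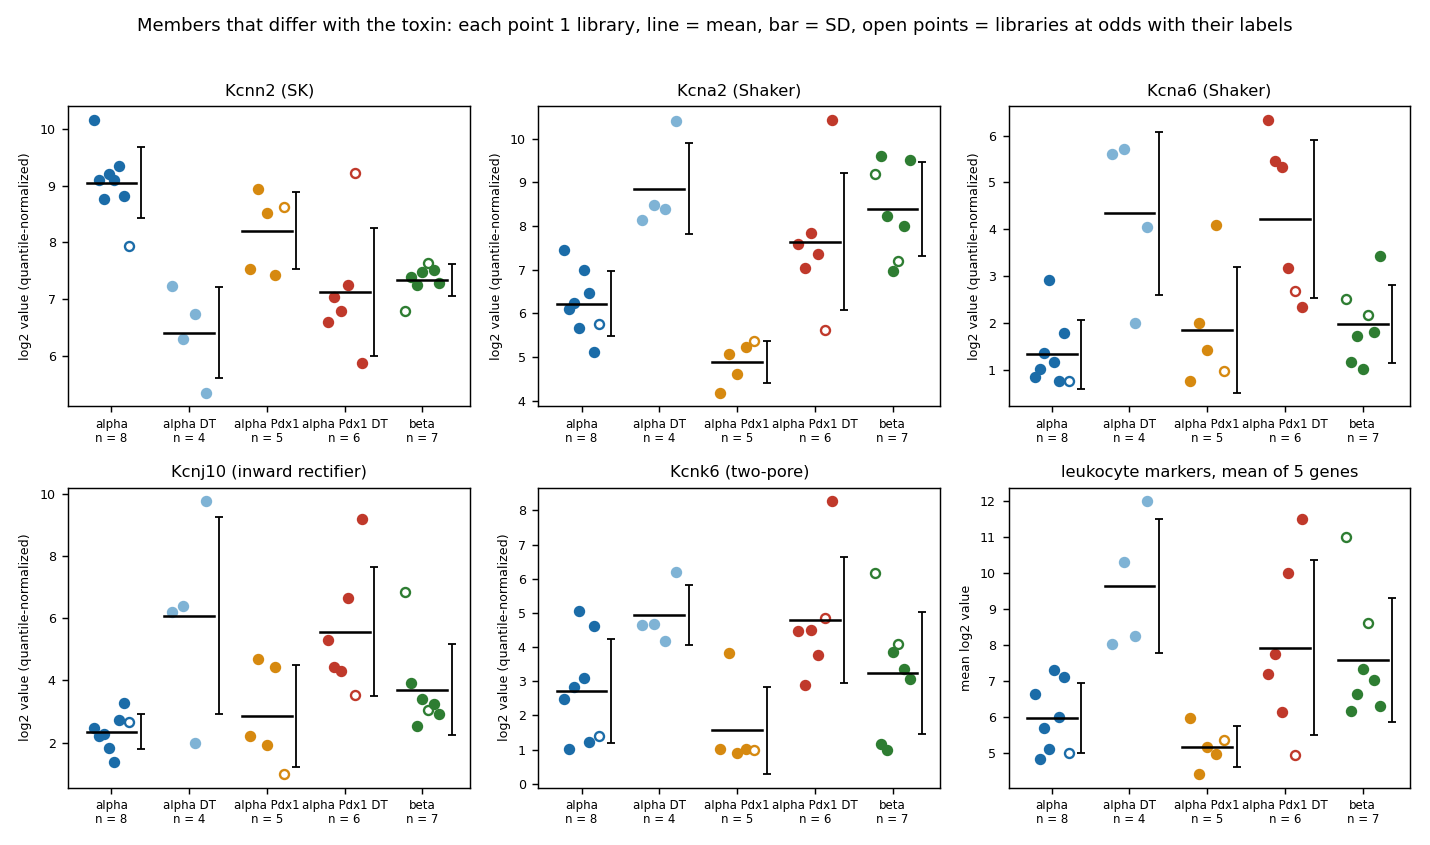
Each point is the log2 value of 1 library (line, mean; bar, SD; open points, libraries at odds with their labels) for Kcnn2, Kcna2, Kcna6, Kcnj10 and Kcnk6, and the last panel gives the mean of 5 leukocyte markers. Kcnn2 in alpha DT, 5.36 to 7.24, lies below all alpha libraries, and Kcnj10 and the leukocyte markers are highest in alpha DT 4 (9.77 and 12).

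With Pdx1, the toxin contrast (alpha Pdx1 DT against alpha Pdx1) gave 4 channel genes (7.55%, beside 9.22% of all genes). All 4 were higher and 0 lower, where 4.83% of all genes were higher and 4.39% lower. At an unadjusted p under 0.05, 12 were higher and 2 lower (26.4%, beside 26.7% of all genes), so the share of channel genes was near that of all genes. Kcna2 stood at 4.18, 5.06, 4.62, 5.22 and 5.36 in alpha Pdx1 and from 5.61 over 7.48 to 10.43 with toxin, without overlap (2.76 ± 0.59, adjusted p = 0.00666). It was the 1 gene called in both toxin contrasts, which share no library, and the other 3 genes of the first also kept their sign. Kcnk6 (TWIK-2) was higher by 3.23 ± 0.91 (adjusted p = 0.0255), with 8.27 in alpha Pdx1 DT 6 and 4 of 5 alpha Pdx1 values at or below 1.03 beside 3.84 in alpha Pdx1 2, and Kcnh2 by 0.81 ± 0.21 (adjusted p = 0.0188). Kcnn2, lower after toxin without Pdx1, gave −1.08 ± 0.42 here (adjusted p = 0.0952), with alpha Pdx1 DT 5 at 9.22 and the other 5 libraries at 5.89 to 7.25, and −1.39 (adjusted p = 0.0244) without the 5 libraries. Leukocyte markers were 4.42 to 5.98 in alpha Pdx1 and 4.96 to 11.51 in alpha Pdx1 DT. The lowest, median and highest means of 6 acinar markers were 3.70, 4.75 and 10.96 in alpha Pdx1 and 6.40, 10.77 and 14.80 in alpha Pdx1 DT. The part of either was not tested.

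Rn18s-rs5 separated these groups fully (16.90 to 18.27 against 19.87 to 22.57), and with it as a covariate 0 channel genes and 0 of all genes passed in limma, with 3 and 758 at an unadjusted p under 0.05. Kcnh2 failed without alpha Pdx1 5 (0.0603) or alpha Pdx1 DT 6 (0.0554), and Kcnk6 without alpha Pdx1 3 (0.0555), alpha Pdx1 4 (0.0598) or alpha Pdx1 5 (0.0684). Kcnk6 also failed with an offset of 32 (0.94, adjusted p = 0.09) and Kcnh2 with only the groups compared (0.0551). The count was 2 without alpha Pdx1 5 (beside 3.39% of all genes) and 9 without alpha Pdx1 DT 5 (beside 15.4%). The difference between the toxin effects with and without Pdx1 was tested as an interaction: 0 of 53 channel genes and 0 of all genes passed in limma, the only tool run, with 8 of 53 and 9.18% of all at an unadjusted p under 0.05. For Kcnn2 the interaction was 1.56 ± 0.60 (unadjusted p = 0.0135, adjusted p = 0.443) and for Kcnh2 1.02 ± 0.30 (unadjusted p = 0.00204, adjusted p = 0.409).

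With both Pdx1 and toxin, alpha Pdx1 DT against alpha, 12 of 53 channel genes passed (22.6%, beside 7.81% of all genes), 11 higher and 1 lower, where 4.06% of all genes were higher and 3.75% lower. Among those higher were the auxiliary Kcnmb1 (3.02 ± 0.57), Kcnip1 (2.61 ± 0.70), Kcnab3 (1.75 ± 0.43) and Kcnip4 (1.33 ± 0.30), the Shaker channels Kcna6 (2.89 ± 0.71) and Kcna1 (2.20 ± 0.68), the Shaw channel Kcnc2 (2.64 ± 0.59), and Kcnj10 (3.21 ± 0.88), Kcnf1 (3.04 ± 0.78) and the two-pore channel Kcnk12 (1.57 ± 0.49). Kcnn2 was lower (−1.92 ± 0.38, adjusted p = 0.00527). The lowest value of alpha Pdx1 DT 6 was 2.35, shared by 1437 genes, where the lowest values of the alpha libraries were 0.76 to 1.03. Genes without reads therefore stood higher in that library than in alpha. Apart from alpha Pdx1 DT 5, the lowest Kcna6 value in alpha Pdx1 DT was also 2.35. The median log2 fold change was 0.56 over the channel genes and −0.03 over all genes. This contrast shares the alpha libraries with the single comparisons, so its overlap with them is not read.

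Of the 8 genes other than auxiliary subunits that were higher in beta than in alpha, Kcnf1 and Kcnc2 also passed here. Both contrasts subtract the same alpha libraries, so this overlap is not read either. Kcnf1 values ran from 0.80 over 4.72 to 7.93 in alpha Pdx1 DT, against 2.38, 2.07, 2.00 and 0.99 in alpha DT and 2.82, 3.09, 4.80, 1.03 and 0.99 in alpha Pdx1. The lowest, 0.80, was that of alpha Pdx1 DT 5, the other 5 stood at 3.98 or above, and beta began at 5.39. Kcng3, its relative, ran from 1.43 over 3.64 to 8.77, with 8.77 in alpha Pdx1 DT 6 (1.86 ± 0.93, adjusted p = 0.199), and stood at 1.07, 5.95, 7.37 and 7.33 in alpha DT (3.17 ± 1.05, adjusted p = 0.0868).

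This count moved with the libraries left out, and the share of all genes called also moved. That share was 7.81% with all libraries, 1.85% without alpha Pdx1 DT 6 and 20.9% without alpha Pdx1 DT 5. Without alpha Pdx1 DT 6, 5 genes passed, and the calls lost included Kcnf1 (adjusted p = 0.076), Kcnip1 (0.0768), Kcnab3 (0.0548), Kcnj10 (0.103), Kcna1 (0.0711) and Kcnk12 (0.105). Without alpha Pdx1 DT 5, 25 passed, and without all 5 libraries 27 (23 higher and 4 lower, beside 20.5% of all genes). Then Kcnmb1 stood 4.07 higher, Kcnf1 4.24, Kcnip1 3.97 and Kcng3 2.79, and Kcnk2 (−2.99), Kcnb2 (−1.54) and Kcnrg (−1.07) were lower beside Kcnn2 (−2.49). Kcnip1 also failed without alpha Pdx1 DT 1 (0.061), 2 (0.0509) or 4 (0.0663), Kcnj10 without alpha Pdx1 DT 1 (0.0514) or 4 (0.0673), and Kcna6 without alpha Pdx1 DT 1 (0.0538). With an offset of 32, Kcnf1 (0.91, adjusted p = 0.0729) and Kcnj10 (1.33, adjusted p = 0.0983) failed, and Kcna6 (0.72), Kcna1 (1.07), Kcnc2 (1.28) and Kcnk12 (1.03) passed with smaller folds. Kcna1 and Kcnk12 passed in 5 and 4 of 14 refits. The count was also 6 without alpha Pdx1 DT 1 (beside 3.07% of all genes) and 8 without alpha Pdx1 DT 4 (beside 2.76%). Fitted on the 2 groups alone, or with Rn18s-rs5 as a covariate (19.87 to 22.57 against 17.68 to 20.54 in alpha), 0 channel genes and 0 of all genes passed. At an unadjusted p under 0.05 there were 21 and 3693 on the groups alone, and 18 and 1991 with the covariate.

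Against beta, alpha Pdx1 DT still differed in 26 of 53 channel genes (49.1%, beside 26.3% of all genes), 18 higher and 8 lower, where 12.9% of all genes were higher and 13.4% lower. The groups of 17 of the 53 (32.1%) did not overlap, beside 12.4% of all genes. The inward rectifiers Kcnj3 (4.21 ± 0.55), Kcnj2 (2.49 ± 0.49) and Kcnj6 (1.82 ± 0.22), the leak channel Kcnk3 (4.45 ± 0.60), the Shaker channels Kcna1 (4.19 ± 0.70), Kcna5 (3.45 ± 0.62), Kcna4 (2.51 ± 0.87) and Kcna6 (2.24 ± 0.73), and Kcnc4 (3.78 ± 0.62), Kcnip3 (3.20 ± 0.49) and Kcnd3 (3.18 ± 0.39) were higher. Lower genes included Kcnj12 (−6.41 ± 0.62), Kcng3 (−5.92 ± 0.96), Kcnh5 (−4.06 ± 0.57), Kcnh1 (−2.37 ± 0.47), Kcnf1 (−2.36 ± 0.80), Kcnb2 (−1.94 ± 0.40) and Kcnmb2 (−1.10 ± 0.18). Kcnb2 (Kv2.2) was lowest in the alpha-cells with Pdx1 or toxin, with means of 6.38 ± 0.80, 6.64 ± 0.85 and 6.75 ± 1.15 (SD) in alpha DT, alpha Pdx1 and alpha Pdx1 DT, against 7.82 ± 0.62 in alpha and 8.69 ± 0.22 in beta. Against alpha it did not pass in alpha DT (−1.44, limma adjusted p = 0.0628), alpha Pdx1 (−1.18, adjusted p = 0.101) or alpha Pdx1 DT. It passed in each without the 5 libraries at odds with their labels (−1.64, −1.67 and −1.54).

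Some calls against beta depended on 1 library. Kcnf1 lost its call without alpha Pdx1 DT 3 (0.0523), alpha Pdx1 DT 5 (0.107), beta 2 (0.0543), beta 3 (0.0544) or beta 7 (0.0662). Kcna6 failed without alpha Pdx1 DT 1 (0.0767), 2 (0.0568) or 3 (0.0537), Kcna4 passed in 6 of 13 refits (adjusted p up to 0.1) and Kcnj13 (1.10 ± 0.41) in 2 of 13 (up to 0.13), and the latter failed with Rn18s-rs5 as a covariate (0.242). With an offset of 32 the fold changes were −3.40 for Kcnj12, −1.69 for Kcnh5, −1.21 for Kcnf1, 1.44 for Kcna1, 1.4 for Kcna5, 0.76 for Kcna4 and 0.65 for Kcna6, and these passed. The lowest value of alpha Pdx1 DT 6 (2.35) also stood above those of the beta libraries (0.76 to 1.17). Without the 5 libraries, 32 genes passed (beside 25.7% of all genes), and Kcnip1 was then lower than in beta (−1.27, adjusted p = 0.00687).

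Genes that work with these channels were counted from 2 further lists. Of 12 partner genes (Abcc8, Abcc9, Dpp6, Dpp10, Amigo1, the Hcn pacemaker channels and the potassium-permeable Tmem38a, Tmem38b and Tmem175), 2 were higher and 3 lower in beta against alpha, beside 16.9% and 17.6% of all genes, with Hcn4 at 2.65 ± 0.40. None of the 12 passed in alpha DT or in alpha Pdx1 against alpha (limma; 0 of 12 also had an unadjusted p under 0.05 in either, beside 20.1% and 17.5% of all genes at that unadjusted p). Amigo1, a Kv2 partner, was higher in alpha Pdx1 DT than in alpha DT (0.84 ± 0.21, adjusted p = 0.0306) and than in alpha (0.57 ± 0.18, adjusted p = 0.0422). Of 9 tested sodium-potassium pump genes, which build the gradient that the channels use, 5 were higher in beta and 1 lower, beside the same 16.9% and 17.6% of all genes, among them the β subunit Atp1b1 (1.06 ± 0.19). Atp1b2 was higher in alpha Pdx1 than in alpha (1.20 ± 0.35, adjusted p = 0.0398) and in alpha Pdx1 DT than in alpha (1.52 ± 0.33, adjusted p = 0.0105). Fxyd6, a pump regulator, was lower in alpha Pdx1 (−1.19 ± 0.27, adjusted p = 0.0106) although beta stood above alpha (0.89 ± 0.25).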

How the data were processed

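Bulk RNA-seq of sorted mouse islet cells was measured in 30 libraries. Per the submitters' processing notes, GSNAP aligned the reads to GRCm38. Which annotation, counter and strand setting were used is not given in the sources used here. In the deposited table the authors give quantile-normalized log2 values for 17775 genes, and genes without reads share each library's lowest value. Library totals are not in the table, so depth is unknown and no counting interval is given. All columns were used.

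The 16633 genes that reached 5 on the log2 scale in 4 or more libraries were fitted with limma 3.58.1 in R 4.3.3, with 1 mean per group over all 30 libraries, an intensity trend and robust variances. Tests were two-sided, for 8 contrasts, adjusted by the Benjamini-Hochberg method over all genes, with a threshold of 0.05. The fit was tested on simulated data. A fold change is a difference of log2 values, and ± gives its standard error. Levels per kilobase subtract the log2 of the merged GENCODE M21 exon length. Tables and figures used Python 3.11.15, numpy 2.4.6, pandas 2.3.3 and matplotlib 3.10.9.

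A few genes are counted in the totals but not reported here singly. The genes, subfamilies and lists were chosen with earlier results of these data known. Named were a fixed set of 17 genes, every called gene up to 12 a direction (otherwise the 12 of largest fold change) and, per subfamily, the highest and up to 2 not called; some examples of genes that did not pass, and libraries discussed singly, were picked after values were seen. Alternatives covered filters, an offset, a covariate, the groups fitted and libraries left out.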

Additional observations from a re-analysis of the deposited data

Results flagged for a closer look

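Reported channel genes that passed in some contrast or belonged to the fixed set, 37 in all, were examined for 1 library standing far from the rest of its group, by the gap to its nearest neighbour as a share of the group's range. Other genes named in the report, such as Kcnd1 and Kcnn1, were not examined. Among their 185 groups, 21 values stood out. The rule flags about 1 in 20 groups when values are independent and normally distributed. Here the same libraries recur over all genes and some values lie at a library's lowest value, so that rate is not the chance rate.

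Of the 21, 6 were in alpha 8, the library labelled alpha with Pdx1 at 11.23. It was the highest of its group for Kcnip1 (10.94, the others 4.85 to 7.46), Kcnip4 (11.22, the others 8.60 to 9.43), Kcnmb1 (9.71, the others 3.92 to 6.43), Kcnab3 (9.40, the others 5.90 to 7.10) and Kcnf1 (4.60, the others 0.76 to 2.04), and the lowest for Kcnb2 (6.43, the others 7.82 to 8.59). Kcnip1 in alpha Pdx1 DT 5, whose Pdx1 was 5.51, was the lowest of its group at 5.64, the others being 10.01 to 10.82.

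In beta 1, which had Gcg as its top gene, Kcnj12 (7.41) was the lowest of the group and Kcnj10 (6.86) the highest. Kcna4 was highest in beta 5 (3.18). In alpha Pdx1 DT 6, Kcnk6 (8.27) and Kcnma1 (13.24) were the highest.

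The other values were spread over 7 libraries. Kcna2 was highest in alpha DT 4 (10.41) and Kcna6 in alpha 4 (2.93), and Kcnd3 was lowest in alpha 2 (7.08). Of alpha Pdx1, replicate 1 had the highest Kcnj12 (3.06) and the lowest Kcnj3 (8.39), replicate 2 the highest Kcng3 (4.17) and Kcnk6 (3.84), replicate 3 the lowest Kcnc2 (6.34) and replicate 4 the highest Kcnn3 (12.27).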

How the results depend on the processing

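No paired analysis was possible because the labels give no replicate numbers that groups share. No channel gene that passed in a contrast changed sign in it under any alternative run; genes that did not pass could, as Kcng3 in alpha Pdx1 against alpha (−0.55, and 0.03 without the 5 doubted libraries). The counts of channel genes called in beta against alpha (26) and in alpha Pdx1 DT against beta (26) stayed within 1.5 times under each alternative. The shares of all genes called ran from 30.7% to 45.6% and from 22.5% to 31.5%. Alpha DT against alpha gave 2 with a filter at 7, an offset of 32, the Rn18s-rs5 covariate or only the groups compared, and 8 without the 5 doubted libraries, where 4 were called. In the settings that gave 2, the shares of all genes called were 3.43%, 3.22%, 1.77% and 0.293%, in that order. Alpha Pdx1 against alpha (4) gave 2 with the covariate (beside 0.685% of all genes) and 7 without the 5 libraries. Alpha Pdx1 DT against alpha Pdx1 (4) gave 0 with the covariate, beside 0 of all genes. Against alpha DT (5) it gave 2 with the covariate (beside 1.14% of all genes), 0 with only the groups compared (beside 0 of all genes) and 11 without the 5 libraries. Against alpha (12) it gave 0, 0 and 27, and each 0 stood beside 0 of all genes. Without the 5 libraries, all genes called were 3.28% in alpha DT against alpha and 6.67% in alpha Pdx1 against alpha. For alpha Pdx1 DT they were 5.77% against alpha DT and 20.5% against alpha. Leaving out 1 library gave 23 to 26, 2 to 8, 4 to 7, 2 to 9, 1 to 11, 5 to 25 and 23 to 29 in the order of these contrasts, beta against alpha first and alpha Pdx1 DT against beta last, and 0 to 0 for the interaction. In the same order, the shares of all genes called in those refits were 30.7% to 35.7%, 1.84% to 6.52%, 1.81% to 5.93%, 3.39% to 15.4%, 0.833% to 5.61%, 1.85% to 20.9% and 22.5% to 26.3%. Fewer libraries or genes enter some of these fits; otherwise the cause was not tested. Depth being unknown, levels near a library's lowest value, as of Kcnj12 in alpha, cannot be told from 0.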
